A study of Mus musculus with 8 samples.

Results

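miR-191 and miR-425 are microRNAs (miRNAs), short RNAs that guide repression of messenger RNAs, and their hairpins lie side by side on mouse chromosome 9. The cluster was followed through all 4 of its mature products, mmu-miR-191-5p, mmu-miR-191-3p, mmu-miR-425-5p and mmu-miR-425-3p (written below without the species prefix), each taken by its name from a table of 1978 mature miRNAs. Small RNA had been sequenced from CD8+ T cells, known as killers of infected cells, from spleens of C57BL/6 mice without any listed treatment or mutation. There were 4 libraries of neonatal mice, 5 to 7 days old, and 4 of adult mice, 12 weeks old, and the comparison asks how the miRNAs differ with age. The cells had been enriched with magnetic beads, and the labels leave unsaid whether each library is a separate animal or a pool. The p-values therefore measure the spread between these libraries only, which may be technical.

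A hairpin is cut into a duplex of a 5p and a 3p arm, and usually one of them, the guide, is kept by an Argonaute protein while the other, the passenger, is mostly lost. The seed, bases 2 to 8 of the guide, does most of the pairing with targets. For both hairpins of this cluster the 5p arm is the known guide. miR-191 is abundant in many tissues and blood cells, is widely used as a reference in PCR assays of miRNAs because its level tends to vary little, and has been linked in mice to the survival of peripheral T cells.

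The mature sequences, from RefSeq on GRCm38.p6, are given with the seed in capitals, to show how the seeds of the neighbouring hairpins compare.
miR-191-5p: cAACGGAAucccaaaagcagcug
miR-191-3p: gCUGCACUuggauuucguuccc
miR-425-5p: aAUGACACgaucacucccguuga
miR-425-3p: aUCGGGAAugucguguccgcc
No 2 of the 4 share a seed. Among all mature mouse miRNAs of the RefSeq table, miR-425-5p alone of the 4 had a seed partner, miR-489-3p, which had 0 counts in every neonatal and adult library.

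The hairpins themselves are shown with both mature arms in capitals, so that the position of each arm can be read.
Mir191: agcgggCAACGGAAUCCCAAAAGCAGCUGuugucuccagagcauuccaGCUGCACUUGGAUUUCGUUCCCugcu
Mir425: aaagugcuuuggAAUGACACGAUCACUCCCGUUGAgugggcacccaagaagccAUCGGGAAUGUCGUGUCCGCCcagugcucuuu
Mir191 lies at chr9:108568319-108568392 and Mir425 at chr9:108568777-108568861, both on the plus strand, with 384 bases between them. Annotations differ on the gene that holds them. In RefSeq both lie within Dalrd3 (chr9:108567484-108572773), a protein-coding gene linked to tRNA methylation. In GENCODE M21, Dalrd3 starts 1493 bases after Mir191 and 1024 bases after Mir425. There both hairpins lie in the single exon of one transcript of the long noncoding gene 4833445I07Rik (chr9:108567533-108569174), while its other transcript holds Mir191 in an intron and ends before Mir425. GENCODE also lists a gene, Gm24083, on the minus strand over Mir191, so reads of the miR-191 arms are separable from it only where strand was used.

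Neonatal libraries held 1454421 to 2416060 counts and adult libraries 1281032 to 2606630. A single count thus equals 0.414 to 0.688 CPM (counts scaled to a common library size) in neonatal libraries, against 0.384 to 0.781 CPM in adult libraries. Levels in this paragraph are by library totals, except where TMM scaling, explained below, is named. The lymphocyte miRNAs miR-150-5p, miR-142a-3p, miR-142a-5p and miR-181a-5p together held 84488 to 91273 CPM in neonatal libraries, against 110327 to 163407 CPM in adult libraries. Most of that sum was miR-150-5p, with a neonatal mean of 67776 CPM and an adult mean of 112886 CPM, while miR-181a-5p stood higher in neonatal libraries on this scale, at 13080 CPM against 7310 CPM in adult libraries. The summed level of 4 erythroid miRNAs was 203 to 525 CPM in neonatal libraries, against 56.2 to 110 CPM in adult libraries. For 2 endothelial miRNAs it was 162 to 185 CPM in neonatal libraries, against 37.5 to 60.7 CPM in adult libraries, and for 4 stromal ones 131 to 214 CPM against 27.6 to 65.1 CPM. The liver miRNA miR-122-5p stood at 863 to 2050.3 CPM in neonatal libraries, against 193 to 314 CPM in adult libraries. Both myeloid miRNAs, miR-223-3p and miR-223-5p, had 20 counts or fewer in any library. The part of these other cell types in the results on the cluster was not tested. In bulk samples fewer cells of a type and less RNA per cell cannot be told apart.

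The guide arms of both hairpins were lower in neonatal cells when libraries were set to a common level by TMM scaling (the trimmed mean of ratios between libraries), and neither passenger arm passed the test. miR-191-5p fell to 0.612 of its adult level and miR-425-5p to 0.561. These falls rest on the scaling, since neither guide passed when libraries were compared by their totals. Of the 375 miRNAs tested with edgeR (quasi-likelihood, calls at a Benjamini-Hochberg adjusted p under 0.05), 63.2% changed with age and 34.1% were lower in neonatal libraries, against which 2 of the 4 members were lower and 0 higher.

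miR-191-5p, the main guide, stood at 15538, 16097, 15708 and 15299.7 CPM after TMM scaling in neonatal libraries 1 to 4, against 29577, 23245, 26931 and 22554 CPM in adult libraries 1 to 4. The neonatal libraries lay close together, all below the lowest adult library, and among adult libraries 1 and 3 were the higher ones. Groups did not overlap for 57.3% of all tested miRNAs. Neonatal libraries averaged 15660.5 ± 336 CPM and adult libraries 25577 ± 3287 CPM (SD, n = 4 each), a log2 fold change of -0.71 ± 0.13 (SE; 95% interval -0.99 to -0.43, edgeR's adjusted p = 0.000405). By abundance it ranked 13 to 15 among all miRNAs in neonatal libraries, against 11 to 15 in adult libraries.

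miR-425-5p, the second guide, stood at 403, 467, 455 and 502 CPM in neonatal libraries, against 965, 740.1, 907 and 649 CPM in adult libraries. All neonatal values again lay below all adult ones, and adult libraries 1 and 3 were again above libraries 2 and 4. Neonatal libraries averaged 457 ± 41.1 CPM and adult libraries 815 ± 146 CPM (SD, n = 4 each), a log2 fold change of -0.83 ± 0.16 (SE; 95% interval -1.18 to -0.49, edgeR's adjusted p = 0.000517). Its abundance rank was 98 to 103 in neonatal libraries, against 77 to 94 in adult libraries.

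**Figure D1:**
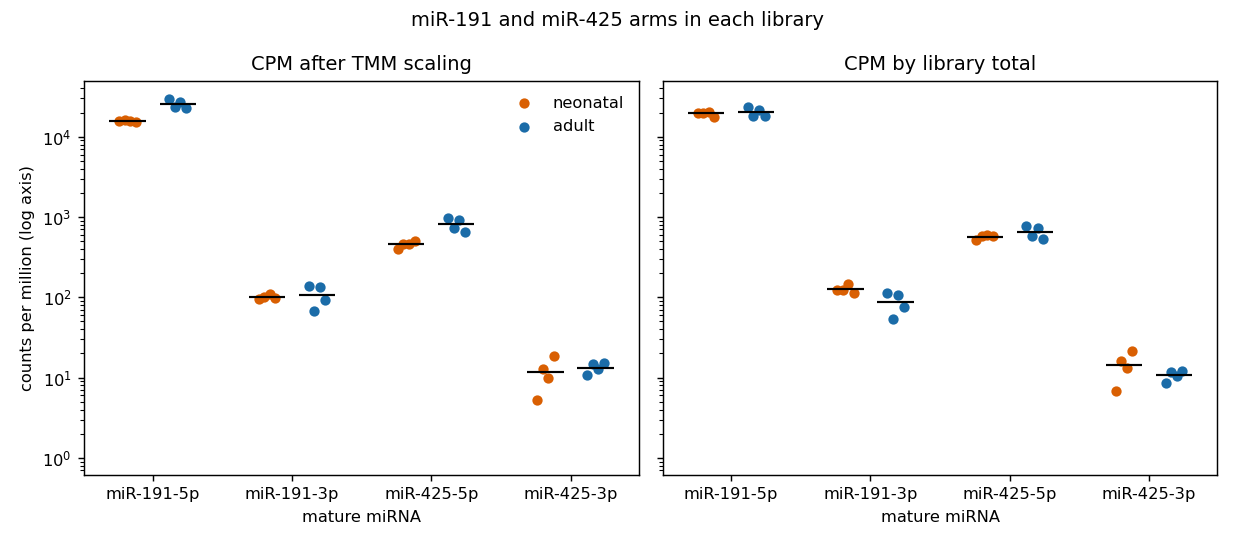
Level of each mature arm in every library in CPM on a log axis, after TMM scaling (left) and by library totals (right). Points are libraries, neonatal left of adult, and black lines are group means. After TMM scaling the neonatal points of miR-191-5p and miR-425-5p lie below all adult points, whereas by library totals they overlap.

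The passenger arms gave fewer counts and did not pass. miR-191-3p had 179, 262, 256 and 276 counts in neonatal libraries, against 143, 97, 279 and 184 counts in adult libraries. After TMM scaling it stood at 95.5, 99.9, 111 and 98.6 CPM in neonatal libraries, against 139, 67.9, 133 and 92.3 CPM in adult libraries. The neonatal values lay inside the adult range, and adult libraries 1 and 3 were high here too. Its log2 fold change was -0.09 ± 0.22 (SE; 95% interval -0.56 to 0.39, edgeR's adjusted p = 0.735), and its sign turned with 3 of 4 other scalings tried (0.048 with RLE, 0.023 with normaliser scaling and 0.55 with library totals).

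miR-425-3p was rare, with 10, 34, 23 and 52 counts in neonatal libraries, against 11, 21, 27 and 30 counts in adult libraries. The groups overlapped, and neonatal library 1 held the fewest counts. After TMM scaling neonatal libraries averaged 11.7 ± 5.55 CPM and adult libraries 13.3 ± 2.01 CPM (SD, n = 4 each). Its log2 fold change was -0.17 ± 0.33 (SE; 95% interval -0.89 to 0.56, edgeR's adjusted p = 0.675), so that at this depth a change of the size seen for miR-425-5p was within the interval. It passed as lower in one fit alone of those tried, with an offset for GC content together with the replicate number as a block (-0.67, edgeR's adjusted p = 0.0396).

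The TMM factors of neonatal libraries ran from 1.16 to 1.3, and those of adult libraries from 0.788 to 0.812. Library totals in place of TMM moved the median of all log2 fold changes up by 0.63, and RLE scaling (the median of ratios) by 0.12. By library totals miR-191-5p averaged 19528 ± 1222 CPM in neonatal libraries, against 20545 ± 2698 CPM in adult libraries. For miR-425-5p the neonatal average was 568 ± 32.8 CPM and the adult one 655 ± 118 CPM (SD, n = 4 each). Both calls were then lost, at log2 fold changes of -0.07 (edgeR's adjusted p = 0.616) and -0.20 (edgeR's adjusted p = 0.228). On that scale miR-191-3p passed as higher instead, at 126 ± 12.96 CPM in neonatal libraries, against 86.8 ± 27.5 CPM in adult libraries (edgeR's adjusted p = 0.0469). The guides kept their calls with RLE scaling (-0.58 and -0.71), with the level of other PCR reference miRNAs as the common scale (-0.61 and -0.74) and with an offset for GC content (-0.87 for both). Relative to the typical miRNA, both guides were lower in neonatal cells, while as shares of all miRNA counts they did not differ beyond the spread of the libraries.

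**Figure D2:**
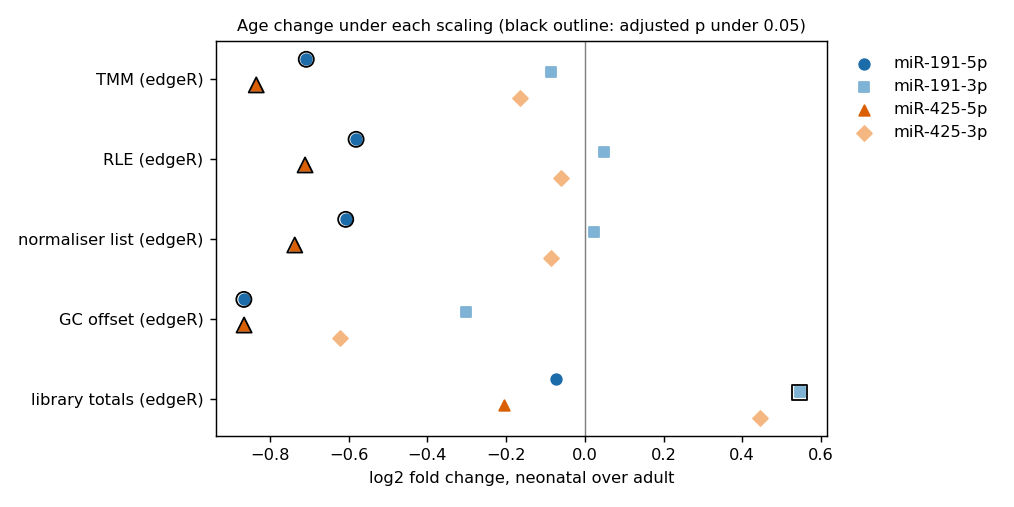
Log2 fold change of each arm, neonatal over adult, under 5 ways of setting libraries to a common level, with a black outline where edgeR's adjusted p was under 0.05. The guides of both hairpins pass as lower in all but the library totals, where miR-191-5p is at -0.07 and miR-191-3p passes as higher at 0.55.

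The cluster as a whole took 2.07%, 2.07%, 2.12% and 1.84% of counts in neonatal libraries, against 2.47%, 1.9%, 2.26% and 1.89% in adult libraries. The groups overlapped, with means of 2.02% ± 0.122 in neonatal and 2.13% ± 0.284 in adult libraries (SD, n = 4 each). The difference did not pass (p = 0.514 by a two-sided exact permutation test, where 0.0286 is the smallest p possible). Nearly all of these counts were of miR-191-5p. Across all 8 libraries the SD of log2 CPM by library totals was 0.14 for miR-191-5p, the third lowest of the 375 tested miRNAs, and 0.21 for miR-425-5p, at rank 22. After TMM scaling their SDs were 0.39 and 0.48, at ranks 88 and 127.

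The ratio of the guides to each other, which no scaling between libraries affects, lay between 29.7 and 38.6 in all 8 libraries. miR-191-5p had 38.6, 34.4, 34.5 and 30.5 counts for each count of miR-425-5p in neonatal libraries, against 30.7, 31.4, 29.7 and 34.7 in adult libraries. The ranges overlapped, with neonatal library 1 highest and adult library 3 lowest. The means were 34.5 ± 3.31 in neonatal and 31.6 ± 2.18 in adult libraries (SD, n = 4 each), a log2 difference of 0.12 that did not pass (p = 0.286 by a two-sided exact permutation test). It was 0.068 without neonatal library 1 and 0.18 without neonatal library 4. Differences of -0.18 to 0.37 on the log2 scale were not rejected by the same test. Sequencing kits ligate adapters with sequence preferences, so the ratio itself is no measure of how many molecules of each a cell holds. The passenger arms had 17.9, 7.71, 11.1 and 5.31 counts of miR-191-3p for each of miR-425-3p in neonatal libraries, against 13, 4.62, 10.3 and 6.13 in adult libraries, a wide and overlapping spread (exact permutation test, two-sided, p = 0.571).

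For comparison, 29 pairs of neighbouring hairpins on a strand, at most 10 kb apart, had a countable leading arm on each side. The log2 fold changes of the leading arms differed by 1.17 at the median over these pairs and by 0.13 for miR-191-5p and miR-425-5p, the second smallest difference. Only Mir409 and Mir412 were closer (0.034). Mir93 and Mir106b differed by 0.21, Mir23a and Mir27a by 0.31, and Mirlet7e and Mir125a by 2.54. Pairs of 1 cluster share hairpins, so this ranking is a description without a test. The pairs also differ in precision. SEs were 0.13 for miR-191-5p and 0.16 for miR-425-5p, against 0.44 for miR-409-3p and 0.54 for miR-141-3p. How this bears on the ranking was not tested.

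**Figure D3:**
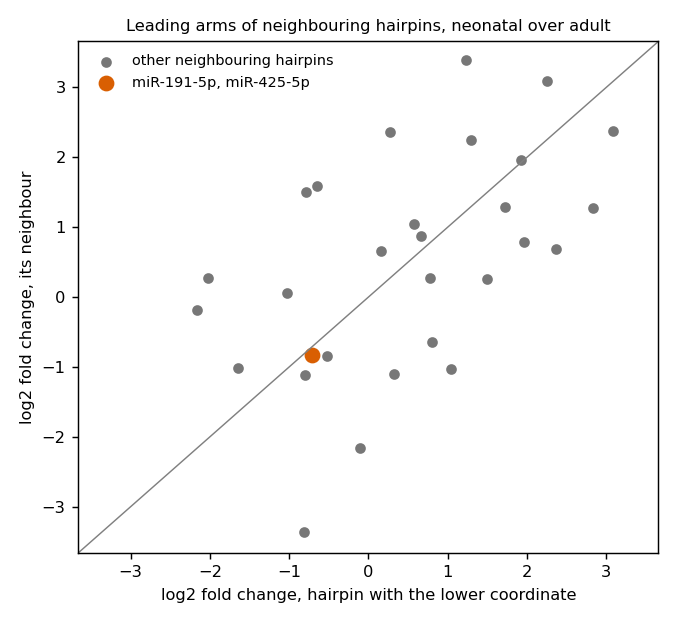
Log2 fold changes, neonatal over adult after TMM scaling, of the leading arms of 29 pairs of neighbouring hairpins, one point per pair, with the line of equal change. The pair of miR-191-5p (-0.71) and miR-425-5p (-0.83) lies near the line, while the median pair differs by 1.17.

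The balance of arms within the miR-191 hairpin shifted towards the passenger in neonatal cells, a measure that is also free of scaling. The 3p arm gave 0.611%, 0.617%, 0.705% and 0.641% of the hairpin's counts in neonatal libraries, against 0.467%, 0.291%, 0.490% and 0.407% in adult libraries. All neonatal shares lay above all adult ones, and adult library 2 was lowest. The exact 95% binomial intervals were 0.525% to 0.707% for neonatal library 1, the lowest neonatal share, and 0.434% to 0.551% for adult library 3, the highest adult share and these intervals overlapped. The means were 0.643% ± 0.0429 in neonatal and 0.414% ± 0.0889 in adult libraries (SD, n = 4 each), or 155 ± 9.93 and 251 ± 63.6 counts of the guide for each count of the passenger. The log2 ratio of 5p to 3p differed by -0.66 ± 0.19, neonatal minus adult (SE; 95% interval -1.08 to -0.25, limma's adjusted p = 0.0135 over 79 hairpins). Of those hairpins 41.8% changed in either direction and 19% were lower, and groups did not overlap for 36.7%. By mean log2 ratio miR-191 was the fourth most 5p-biased of the 79 hairpins and miR-425 stood at rank 12.

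Which arm moved depends on the scale. After TMM scaling the guide was lower in neonatal libraries and the passenger did not pass. By library totals the passenger was higher in neonatal libraries and the guide did not pass. The lower ratio of the 5p to the 3p arm was the same under both, since it is formed within a library. Leaving out 1 library at a time gave log2 differences of -0.75 to -0.50, with limma's adjusted p of up to 0.0499.

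For miR-425 the 3p arm gave 1.31%, 2.7%, 2.15% and 3.57% of the hairpin's counts in neonatal libraries, against 1.09%, 1.95%, 1.4% and 2.26% in adult libraries. The groups overlapped, and within each group libraries 2 and 4 were above libraries 1 and 3. Between libraries of the same number the neonatal share was the higher one in all 4 cases. Whether the numbers pair the libraries is not known. The means were 2.43% ± 0.951 in neonatal and 1.68% ± 0.528 in adult libraries (SD, n = 4 each). The log2 ratio of 5p to 3p differed by -0.51 ± 0.33 (SE; 95% interval -1.24 to 0.22) and did not pass (limma's adjusted p = 0.252; 0.1001 when the fit blocked on replicate number). It ran from -0.77 without neonatal library 1 to -0.30 without neonatal library 4 and did not pass with any 1 library left out. The interval holds the difference found for miR-191, and whether the hairpins differ in this was not tested.

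**Figure D4:**
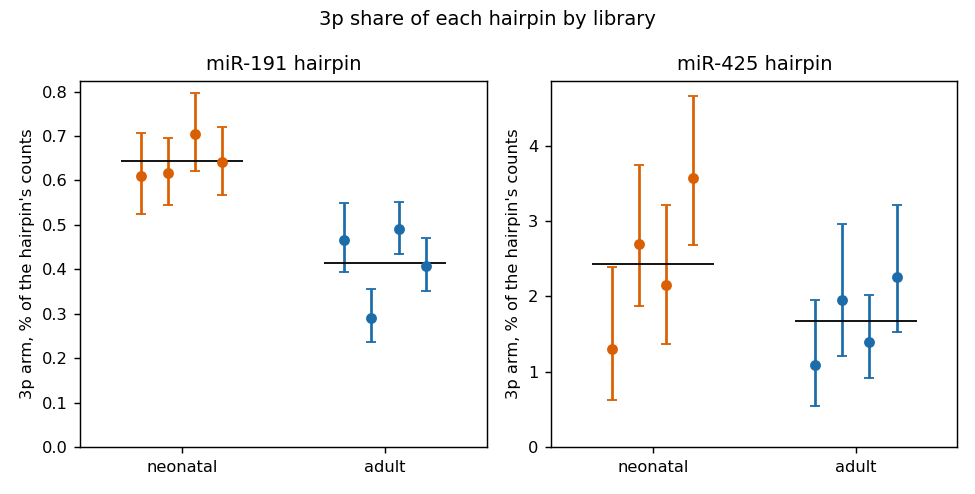
Share of the 3p arm in the counts of the miR-191 hairpin (left) and the miR-425 hairpin (right) in percent, one point per library with its exact 95% binomial interval, which covers counting error only, and the group mean as a line. Neonatal shares of miR-191 (0.611% to 0.705%) all lie above adult ones (0.291% to 0.490%), and those of miR-425 overlap.

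The profiles most like each member over the 8 libraries were found by the root mean square difference of centred log2 CPM after TMM scaling. miR-425-5p was nearest to miR-23a-3p (0.068), a miRNA of the cluster with miR-27a and miR-24-2, at 2375 ± 186 CPM in neonatal libraries, against 4143 ± 864 CPM in adult libraries (log2 fold change -0.80 ± 0.16, edgeR's adjusted p = 0.000892). The same miRNA was nearest to miR-191-5p (0.12) outside the cluster, followed by miR-28a-3p (0.12) and miR-361-5p (0.13). miR-191-5p and miR-425-5p differed by 0.12 from each other, against 0.39 between the arms of miR-191 and 0.52 between those of miR-425. The next nearest to miR-425-5p were miR-466e-3p and miR-467d-3p (0.15 and 0.16), both under 15 CPM in each group. Nearest to miR-191-3p were miR-8112, miR-15b-3p and miR-211-5p (0.19 to 0.23), and nearest to miR-425-3p were miR-106b-5p, miR-186-5p and miR-20a-5p (0.21 to 0.25), none of which passed.

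Other miRNAs that serve as references in PCR assays did not all differ in the same direction between the ages. Of 18 on a list of such normalisers, all tested, 3 were higher and 7 lower in neonatal libraries (55.6% against 63.2% of all tested). Their median log2 fold change was -0.29, against -0.05 over all miRNAs. With the replicate number as a block 4 were higher and 10 lower in neonatal libraries (77.8% against 70.7% of all tested). The list's share of calls thus lay above that of all miRNAs in that fit and below it in the fit without the block. The median size of their changes was 0.42, against 0.88 over all tested. By library totals 9 were higher and 2 lower. miR-16-5p, which slows the cell cycle, fell to 2684 ± 453 CPM in neonatal libraries, against 6354 ± 511 CPM in adult libraries (-1.24 ± 0.15, edgeR's adjusted p = 1.73e-05). miR-103-3p, encoded in introns of pantothenate kinase genes, rose to 5257 ± 749 CPM in neonatal libraries, against 2851 ± 152 CPM in adult libraries (0.88 ± 0.14, edgeR's adjusted p = 0.000138). miR-151-5p had the largest rise, at 62.0 ± 28.7 CPM in neonatal libraries, against 13.3 ± 3.83 CPM in adult libraries (2.21 ± 0.39). miR-92a-3p, the most abundant of the list, stood at 86188 ± 17338 and 114517 ± 28583 CPM in neonatal and adult libraries and did not pass (edgeR's adjusted p = 0.0852). miR-484 (0.095 ± 0.139) and miR-423-5p (-0.10 ± 0.24) did not pass either. On the list, miR-16-5p and miR-26a-5p (-1.02) lay below miR-425-5p, and miR-320-3p (-0.75) also lay below miR-191-5p, an order that was not tested.

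**Figure D5:**
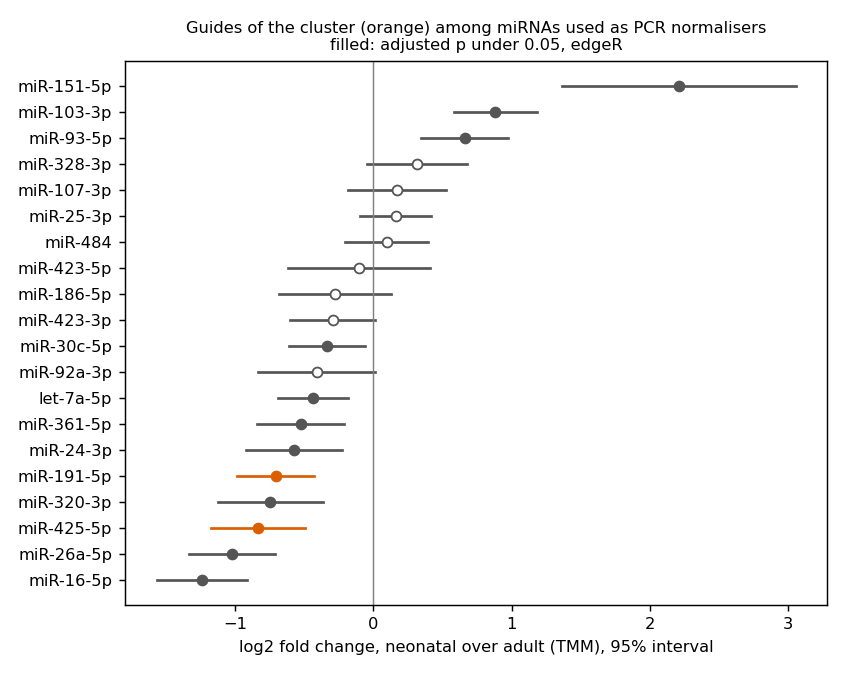
Log2 fold change, neonatal over adult after TMM scaling, with its 95% interval for the guides of the cluster (orange) and 18 miRNAs used as PCR normalisers (grey), filled where edgeR's adjusted p was under 0.05. miR-191-5p and miR-425-5p lie among the lower members, between miR-24-3p (-0.57) and miR-26a-5p (-1.02).

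RefSeq places this cluster within the span of a protein-coding gene, and whether in an intron of it was not tested. miRNAs from introns of such genes also went both ways. Of 28 on a list, 8 of which are also normalisers, 24 had a protein-coding host on the same strand in GENCODE. No position was found for miR-151-3p, miR-151-5p, miR-185-5p and miR-532-5p, so their hosts could not be looked up. Of the 27 tested, 6 were higher and 8 lower in neonatal libraries (51.9% against 63.2% of all tested), with a median log2 fold change of -0.14. By library totals 15 were higher and 4 lower. miR-15b-5p, from the condensin gene Smc4, fell to 1305 ± 323 CPM in neonatal libraries, against 3264 ± 506 CPM in adult libraries (-1.32 ± 0.19, edgeR's adjusted p = 6.45e-05). The largest neonatal rise was again that of miR-151-5p (2.21), which is on both lists. After it, miR-744-5p, from the kinase gene Map2k4, rose to 2908 ± 191 CPM in neonatal libraries, against 1058 ± 87.8 CPM in adult libraries (1.46 ± 0.13, edgeR's adjusted p = 1.55e-06). miR-26a-5p, from Ctdspl and Ctdsp2, ranked as the most abundant of the list over all libraries, although miR-25-3p was higher in neonatal ones. miR-26a-5p fell to 20126 ± 2203 CPM in neonatal libraries, against 40871 ± 5762 CPM in adult libraries (-1.02 ± 0.14, edgeR's adjusted p = 5.08e-05). miR-25-3p, from the replication gene Mcm7, stood at 32001 ± 791 and 28652 ± 2530 CPM in neonatal and adult libraries (0.16 ± 0.12) and did not pass.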

How the data were processed

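The table deposited by the authors holds estimated counts for each mature miRNA on each precursor, without normalization. The build is mm10, per the submitters' processing notes. Which aligner, counter and annotation were used is not given in the sources used here. Libraries were built with a NEBNext small RNA kit, per the labels' protocols. Estimated counts were summed over precursors and rounded. Each member has 1 precursor, and all its counts are whole. miRNAs were kept by filterByExpr (minimum count 10, total 15), which left 375 with all 4 members. edgeR 4.0.16 in R 4.3.3 ran the quasi-likelihood test with TMM scaling, with age as the only term. SEs and 95% intervals were derived from the F value. Arm ratios were log2((5p + 0.5)/(3p + 0.5)) over 79 hairpins, tested with limma 3.58.1. The ratios of miR-191 to miR-425 for the same arm, and the share of counts, were compared by exact permutation over the 70 divisions of 8 libraries. DESeq2 1.42.0 and limma-voom were alternatives. The fits were tested on simulated data with 4-fold changes in both directions. There edgeR recovered 100% of the 80 changed miRNAs tested, and 3.61% of its calls were false. That simulation cannot show which scaling suits these data, or how well changes as small as those of the guides are found.

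The 4 members were given by name. The lists, alternatives and tests were chosen with earlier results of these data known. Named besides the members were the 3 nearest profiles of each, and in each list the most abundant miRNA and the largest called changes, with other list members as examples chosen after their values were seen. Neonatal and adult libraries with the same replicate number deviated together from their group means. Their r over miRNAs was 0.256 to 0.415, with all 4 pairs above 0.1. Unlike numbers did so too where both were odd or both even (r = 0.107 to 0.482), while odd with even numbers gave negative r. This check therefore cannot show that the numbers pair the libraries, and fits that block on them are alternatives only. Neighbouring hairpins with an arm shared by several precursors, or with a library at 0 counts, were left out. GC content of the mature sequence was found for 314 of the 375 tested (83.7%). Binomial intervals cover counting error only, since the labels mention no molecular identifiers.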

Additional observations from a re-analysis of the deposited data

How the results depend on the processing

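Of the values above, the calls of both guides were lost with library totals alone (-0.073 for miR-191-5p and -0.20 for miR-425-5p), and over all other settings tried they stayed lower and past the threshold. Without 1 library at a time they ran from -0.71 to -0.60 and from -0.88 to -0.74. Library totals also gave 186 miRNAs higher and 68 lower in neonatal libraries (73.2% of calls higher, against 46% with TMM), and 9 normalisers higher and 2 lower, and 15 and 4 of the intronic list. RLE scaling and DESeq2 each gave 5 normalisers higher. miR-191-3p, which did not pass, turned above 0 with RLE (0.048), DESeq2 (0.048), normaliser scaling (0.023), no filter (0.018) and library totals (0.55), and ran from -0.20 to 0.083 without 1 library at a time. miR-425-3p turned with library totals (0.45), ran from -0.39 to 0.089 without 1 library at a time, and passed with the GC offset and replicate block (-0.67). Its 10 to 52 counts per library limit the precision. The share of counts held by the cluster ran from -0.185 to 0.00677 percentage points, neonatal minus adult, without 1 library at a time. With the 10 most abundant other miRNAs left out of the total it was 5.30% in neonatal and 5.89% in adult libraries, a difference of -0.587 points (p = 0.286 by a two-sided exact permutation test). The cause was not tested. In the fit that blocks on replicate number, the guides were at -0.70 and -0.82, and the block alone changed no call of a member, an arm ratio or the ratio of guides. For the ratio of guides, a sign-flip test that takes like-numbered libraries as 4 pairs gave p = 0.375 (exact, two-sided, smallest possible 0.125). The largest precursor count in place of the sum, chosen after seeing the data, changed no call of a member. No sample stood apart by Dixon's test in any of 16 group values of the cluster. That result does not cover the levels by library totals. On that scale neonatal library 4 stood low for miR-191-5p, at 17719 CPM against 19953 to 20407 CPM in the other neonatal libraries. For miR-425-5p neonatal library 1 did, at 519 CPM against 579 to 591 CPM.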
